A study of Mus musculus with 9 samples.

Results

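The 10 complement genes examined in the mouse colon were all among the 27719 genes of the count table. They were picked by symbol, with earlier results of these data known, so counts of calls among them are descriptions. They are the 3 chains of C1q (*C1qa*, *C1qb* and *C1qc*), the components *C3*, *C4b*, *C2* and *Cfb*, the anaphylatoxin receptors *C3ar1* and *C5ar1*, and the inhibitor *Serping1*. All 10 had enough counts to be tested, among 12566 genes in all. The colon RNA came from C57BL/6J mice, 3 in each of 3 groups with 1 library per mouse, and their age was not given in the sources used here. Control mice drank distilled water. The DSS group drank 2.5% dextran sodium sulfate, a polymer that injures the lining of the colon, for 7 days. Mice of the DSS + EA group drank the same and, after 5 days of modeling, received electroacupuncture (EA), a weak current passed through needles, at the ST36 point on each hind limb in daily sessions of 30 minutes (2 Hz, 0.2 mA) over 5 days. Mice of the other groups were held in the frame for as long without current, so the comparisons of EA differ in needling and current together. Full-length cDNA made from the RNA was amplified by PCR and read on an Oxford Nanopore instrument, and the authors deposited the number of reads per gene.

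Complement is a cascade of plasma proteins that marks microbes and damaged cells. C1q binds antibody or altered surfaces and starts the classical pathway, in which C4 and C2 are cleaved to form an enzyme that cleaves C3, while factor B (*Cfb*) forms the corresponding enzyme of the alternative pathway. Fragments of C3 and C5 attract and activate myeloid cells through the receptors C3aR and C5aR1, and C1 inhibitor (*Serping1*) switches off the proteases bound to C1q. The liver makes most of the circulating components, whereas macrophages are the main source of C1q, and fibroblasts and epithelial cells of inflamed tissue can make C3, C4 and factor B.

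The libraries held from 2627695 to 4235576 counts. Levels are given as CPM, in which every library is scaled to the same total after adjustment by the TMM method of edgeR, and 3 counts correspond to 0.708 to 1.14 CPM of the unadjusted totals. Marker levels of several cell types differed between groups. Summed CPM of 12 colon epithelium markers was 11019 to 27836 in controls, 1388 to 7031 under DSS and 7761 to 14554 under DSS + EA. DSS mouse 1 stood apart from the other DSS mice in the summed CPM of 12 neutrophil markers, with 4631 against 25603 and 28157. *S100a8* took most of the sum in DSS mice 2 and 3, and *Ly6g* went the other way, with 2166 CPM in DSS mouse 1 against 1298 and 1406. DSS + EA mice 2 and 3 held 27952 and 12846 summed CPM of 10 pancreatic acinar markers, against 521 in DSS + EA mouse 1 and at most 963 in the other groups. Of 10 hepatocyte markers, 3 had 3 counts or fewer in every library and only 1 could be tested. In bulk RNA, fewer cells of a type and less RNA per cell cannot be told apart.

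Compared with the control group, complement transcripts were more abundant in the DSS group. The 10 genes together took between 0.0317% and 0.0353% of each control library, between 0.171% and 0.221% of each DSS library and between 0.101% and 0.107% of each DSS + EA library, so the 3 groups did not overlap. In edgeR's quasi-likelihood test, 9 of the 10 were higher under DSS than in controls (p-value under 0.05 after Benjamini-Hochberg adjustment), where 21.5% of all genes tested were higher. None was lower by edgeR or DESeq2, where 19.5% of all genes tested were lower by edgeR. All 10 were higher at an unadjusted p under 0.05, and *C2* was the gene not called. By the thresholds of the study's methods, a log2 fold change beyond 2.5 with an unadjusted P under 0.01, *C3*, *C4b*, *C3ar1* and *C5ar1* were differentially expressed genes (DEGs), where 6.62% of all genes tested were higher and 3.57% lower DEGs. *C3ar1* lay almost on this threshold and was a DEG in 8 of 17 alternative fits, while the other three were DEGs in all 17. The median log2 fold change of the 10 genes was 2.33, against 0.02 for all genes tested. With each mouse left out in turn, 9 or 10 of the genes were called higher, against 2171 of 13287 to 3266 of 13341 of all genes tested. For the 9 genes called, all DSS mice lay above all control mice, as in 26.2% of all genes tested. In what follows, the value after ± beside a log2 fold change is its standard error.

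For DSS + EA against DSS, 6 of the 10 genes were lower in the DSS + EA group (*C1qb*, *C1qc*, *C3*, *C4b*, *C5ar1* and *Serping1*), where 18.3% of all genes tested were lower. None of the 10 was higher at an adjusted p-value under 0.05 by edgeR or DESeq2, against 17.2% of all genes tested, and *C2* alone was higher at an unadjusted p under 0.05 (edgeR). Of *C1qb*, *C1qc*, *C3*, *C4b* and *Serping1* all DSS + EA mice lay below all DSS mice, as in 23.3% of all genes tested, and of *C2* all lay above, as in 24.2%. None was a DEG, where 3.50% of all genes tested were lower and 2.91% higher DEGs, and the median log2 fold change was -0.91, against -0.02 for all genes tested. *C1qa*, *C2*, *Cfb* and *C3ar1* were not called. Between 4 and 7 of the genes were called lower when single mice were left out, against 1623 of 13407 to 3011 of 13341 of all genes tested. The calls of *C1qb* and *C5ar1* depended on which mice were used, as given with each gene.

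Compared with the control group, 8 of the 10 genes were still higher in the DSS + EA group, where 3.00% of all genes tested were higher. The exceptions were *C3ar1* and *C5ar1*, none was lower by edgeR or DESeq2 (0.637% of all genes tested were lower by edgeR), and *C3* and *C4b* were DEGs (1.74% of all genes tested were higher DEGs), in 15 and 12 of the 17 alternative fits. The median log2 fold change was 1.75, against 0.0018 for all genes tested. Of the 9 genes called higher in the DSS group, 7 were also called higher in the DSS + EA group, while 237 of all 2698 genes higher in the DSS group, 8.78%, were, which is 1.89% of all genes tested. All DSS + EA mice lay above all control mice for each of the 10, as in 18.0% of all genes tested. Both of these comparisons use the same control mice, and the comparisons of DSS with either group share the DSS mice, so they are not independent of each other. Without control mouse 1, 5 of the genes were called higher in the DSS + EA group. In that fit 88 of all 13287 genes tested were higher, against 377 of 12566 with all mice.

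**Figure D1:**
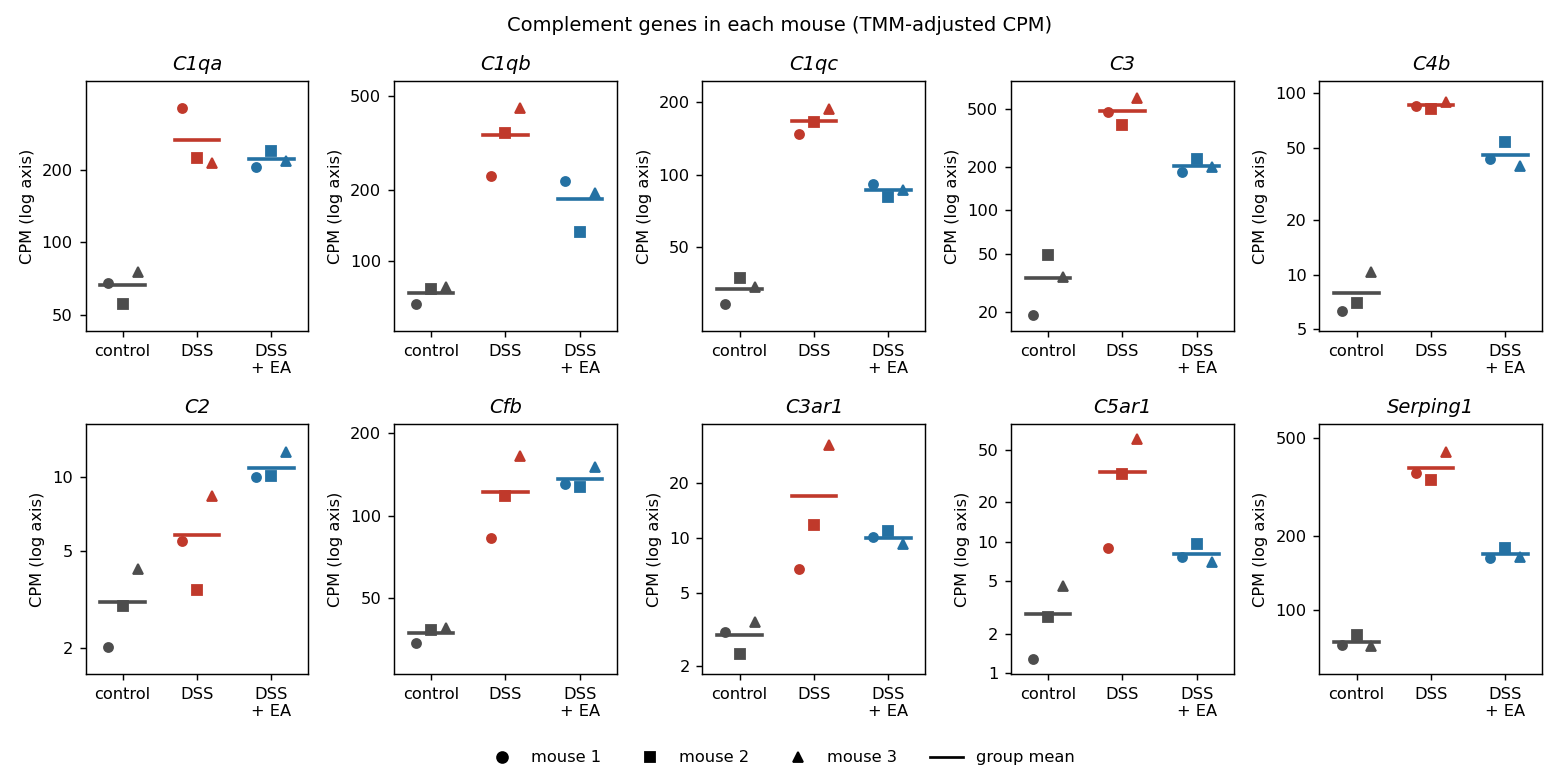
TMM-adjusted CPM of each complement gene on a log axis, with 1 point per mouse (symbols mark mouse 1, 2 and 3 of each group, which are different animals) and a line at the group mean. Control mice lie below all DSS and DSS + EA mice for every gene except *C2*, whose lowest DSS mouse, at 3.48 CPM, lies below the highest control mouse, at 4.22 CPM.

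*C1qa*, *C1qc* and *C1qb* encode the A, C and B chains, from which each C1q molecule is built in equal numbers. They lie next to each other on the minus strand of mouse chromosome 4 (GRCm38, the build that the labels call mm10), with *C1qa* at chr4:136895917-136898803, *C1qc* at chr4:136889804-136893065 and *C1qb* at chr4:136880129-136886187. As these neighbours rose together, the start regions of the pair for which a RefSeq promoter was at hand are shown, from 250 bases before to 50 bases after the start, 5′ to 3′ on the gene's strand (GRCm38.p6). Capitals mark matches, on either strand, to an NF-kB type motif, GGG and CC with 5 bases between them, or a PU.1 type motif, GAGGAA.
*C1qb*, chr4:136886151-136886450, minus strand: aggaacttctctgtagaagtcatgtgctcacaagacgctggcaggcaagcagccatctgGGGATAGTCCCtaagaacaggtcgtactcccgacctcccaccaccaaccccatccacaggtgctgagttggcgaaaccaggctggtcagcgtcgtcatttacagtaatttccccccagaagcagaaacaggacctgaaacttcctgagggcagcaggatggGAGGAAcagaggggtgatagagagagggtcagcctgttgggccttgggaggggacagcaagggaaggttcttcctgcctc
*C1qc*, chr4:136892865-136893164, minus strand: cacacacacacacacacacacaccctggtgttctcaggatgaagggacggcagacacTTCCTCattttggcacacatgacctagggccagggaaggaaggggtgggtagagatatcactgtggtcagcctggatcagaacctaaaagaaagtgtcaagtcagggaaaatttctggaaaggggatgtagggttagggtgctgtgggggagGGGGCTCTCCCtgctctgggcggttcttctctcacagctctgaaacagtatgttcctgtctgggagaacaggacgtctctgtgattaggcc
The PU.1 type letters begin 30 bases before the start of *C1qb* and, on the opposite strand, 193 bases before that of *C1qc*. They are found in 28.3% of 32851 RefSeq promoters of the same 300 bases, and the NF-kB type letters in 50.8%. These matches are descriptions of letters and not of bound sites.

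All 3 C1q genes were between 4.03- and 4.97-fold higher in the DSS group. *C1qc* was at 29.2, 37.2 and 34.1 CPM in controls 1, 2 and 3, at 147, 165 and 188 CPM under DSS and at 91.3, 80.7 and 86.6 CPM under DSS + EA. The 3 groups did not overlap, and every DSS + EA mouse lay between the control and DSS groups. *C1qc* was 4.97-fold higher under DSS than in controls (log2 fold change 2.31 ± 0.18, adjusted p = 3.33e-05, edgeR). It was 1.93-fold lower under DSS + EA than under DSS (log2 fold change -0.95 ± 0.17, adjusted p = 0.00325, edgeR) and 2.57-fold higher than in the control group (log2 fold change 1.36 ± 0.18, adjusted p = 0.00445, edgeR). These 3 calls held without any single mouse.

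*C1qb* was at 65.6, 75.8 and 77.8 CPM in controls 1, 2 and 3, at 229, 349 and 444 CPM under DSS and at 219, 133 and 195 CPM under DSS + EA. DSS mouse 1 was close to DSS + EA mouse 1, and DSS + EA mouse 2 was the lowest of its group. The gene was 4.67-fold higher under DSS than in controls (log2 fold change 2.22 ± 0.28, adjusted p = 0.000322, edgeR) and 1.87-fold lower under DSS + EA than under DSS (log2 fold change -0.90 ± 0.27, adjusted p = 0.0255, edgeR). This second call was lost without DSS mouse 2 or 3 or DSS + EA mouse 2 or 3, with log2 fold changes of -1.09 to -0.66 over the mice left out. *C1qb* was 2.49-fold higher under DSS + EA than in controls (log2 fold change 1.32 ± 0.27, adjusted p = 0.0278, edgeR), a call that was lost without any one control mouse and without DSS + EA mouse 1 or 3 (1.14 to 1.50).

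*C1qa* behaved differently within the DSS group. It was at 67.6, 55.5 and 75.5 CPM in controls 1, 2 and 3, at 361, 224 and 214 CPM under DSS and at 206, 239.8 and 219 CPM under DSS + EA. DSS mouse 1, the lowest DSS mouse for *C1qb* and *C1qc*, was the highest for *C1qa*, and the DSS and DSS + EA mice overlapped. *C1qa* was 4.03-fold higher in the DSS group (log2 fold change 2.01 ± 0.24, adjusted p = 0.000249, edgeR) and 3.35-fold higher in the DSS + EA group (log2 fold change 1.74 ± 0.24, adjusted p = 0.00497, edgeR), each against the control group. For DSS + EA against DSS its log2 fold change was -0.27 ± 0.23 (adjusted p = 0.384, edgeR), and without DSS mouse 1 it was 0.044.

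The balance of the 3 chains in each library shows the same difference without any scaling between libraries. *C1qa* held 49.0% (95% confidence interval 46.9 to 51.0) of the C1q counts in DSS mouse 1, 30.4% (95% confidence interval 28.9 to 32.0) in DSS mouse 2 and 25.3% (95% confidence interval 23.7 to 27.0) in DSS mouse 3, with Wilson intervals that cover counting error only. Its share ran from 32.9% to 41.6% in controls and from 40.0% to 52.9% under DSS + EA. *C1qc*, in contrast, kept to between 17.3% and 22.3% in all 9 libraries. The ratio of *C1qa* to *C1qb* counts was 1.58, 0.643 and 0.482 in DSS mice 1, 2 and 3, 1.03, 0.732 and 0.97 in the control mice and 0.944, 1.8 and 1.13 in the DSS + EA mice. Mice of the DSS group differed more in this ratio than the groups did, and the 3 groups overlapped.

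**Figure D2:**
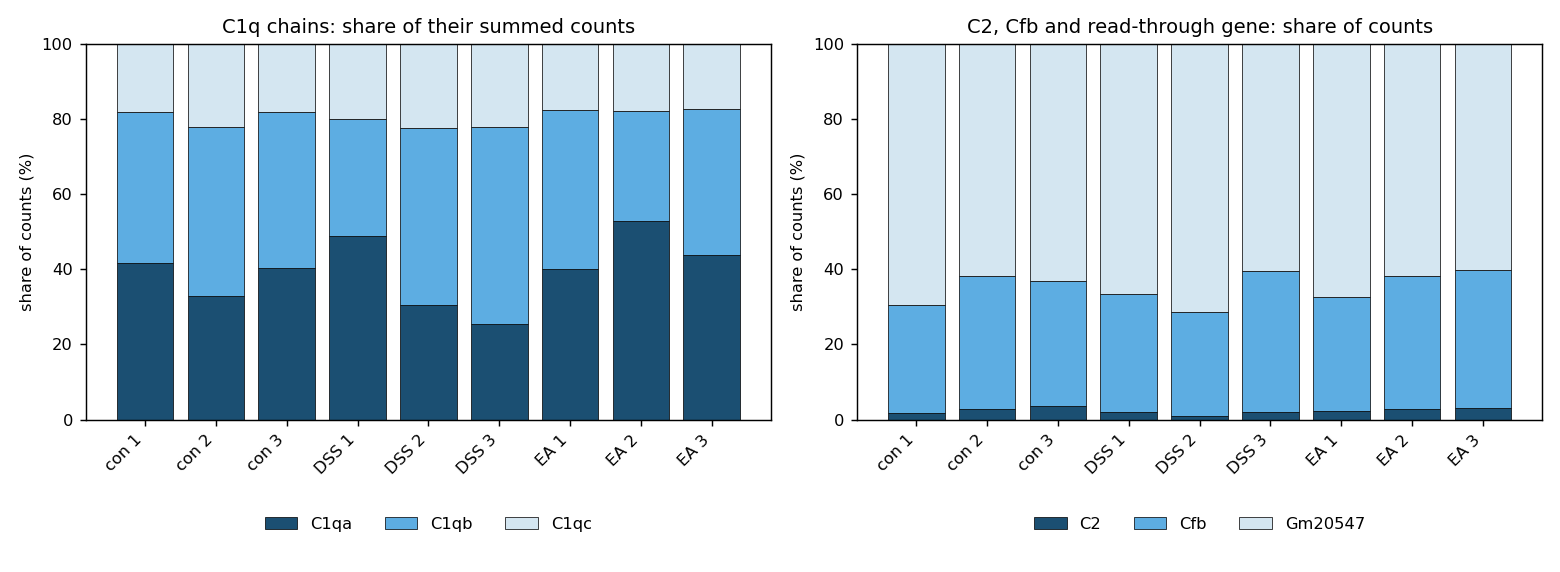
Stacked bars of the share (%) of counts in each library (con, control; EA, DSS + EA): left, the C1q chains among their summed counts; right, *C2*, *Cfb* and the overlapping gene *Gm20547* among theirs. The *C1qa* share runs from 25.3% to 52.9%, while *Gm20547* holds 60.1% to 71.4% of its locus in every mouse.

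Markers of macrophages were not uniformly higher with DSS. Of 12 macrophage markers, 8 were higher and 2 (*Cx3cr1* and *Cd74*) were lower under DSS than in controls (21.5% and 19.5% of all genes tested). For DSS + EA against DSS, 2 were higher and 5 lower (17.2% and 18.3% of all genes tested). None differed for DSS + EA against control by edgeR (3.00% of all genes tested were higher and 0.637% lower), where 6 had an unadjusted p under 0.05 and DESeq2 called 3 higher. Their summed CPM was 655 to 779.7 in controls, 943 to 2056 under DSS and 998 to 1240.3 under DSS + EA, and none of the 12 was at 0 throughout a group. *Ctss* and *Cd74* took most of the sum in controls, with means of 347 and 258 CPM. *Cd74* had means of 120 CPM under DSS and 325 CPM under DSS + EA, so the sum says little of the less abundant markers. DSS mouse 1 was the lowest DSS mouse for this sum, at 943 CPM, as for *C1qb* and *C1qc* but not for *C1qa*. The part of macrophage number in the C1q values was not tested.

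The proteases that C1q carries were measured from the list of other complement genes. *C1ra*, which encodes C1r, was at 12.5, 14.6 and 9.96 CPM in controls 1, 2 and 3, at 56.9, 105 and 103 CPM under DSS and at 40.2, 29.1 and 37.7 CPM under DSS + EA, with no overlap between groups. It was 7.12-fold higher in the DSS group (log2 fold change 2.83 ± 0.29, adjusted p = 0.000125, edgeR), where it was a DEG, and 2.47-fold lower under DSS + EA than under DSS (log2 fold change -1.31 ± 0.27, adjusted p = 0.00576, edgeR). *C1s1*, which encodes C1s, the protease that cleaves C4 and C2, was 3-fold higher in the DSS group (log2 fold change 1.58 ± 0.22, adjusted p = 0.000601, edgeR) and had a log2 fold change of -0.62 (adjusted p = 0.0502, edgeR) for DSS + EA against DSS, which was called lower with RLE normalization, with library totals, with a filter at a mean of 20 counts and without DSS mouse 1. Both were called higher under DSS + EA than in controls, *C1ra* with 1.53 (adjusted p = 0.0182) and *C1s1* with 0.97 (adjusted p = 0.0456), calls that were lost in 5 and 6 of the 9 fits without single mice, among them every one without a control mouse, and for *C1s1* also with library totals and with the filter. The copies *C1rb* and *C1s2* had 4 and 0 counts in all, and reads of such near-identical genes could have been divided between them.

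*C3*, at chr17:57203970-57228136 on the minus strand of chromosome 17, encodes the component on which all complement pathways meet, and it had the highest fold change of the 10 genes with DSS when all mice were used. Its lead over *C5ar1* lay within their standard errors (log2 fold changes 3.81 ± 0.34 and 3.64 ± 0.67), and the order depended on which mice were used. Without control mouse 3, for example, *C5ar1* was higher (log2 fold change 4.10, against 3.78 for *C3*). The start region of *C3* is shown for its place in the cascade, with capitals for the same NF-kB type letters and the C/EBP type letters TTGCNNAA on either strand.
*C3*, chr17:57228087-57228386, minus strand, GRCm38.p6: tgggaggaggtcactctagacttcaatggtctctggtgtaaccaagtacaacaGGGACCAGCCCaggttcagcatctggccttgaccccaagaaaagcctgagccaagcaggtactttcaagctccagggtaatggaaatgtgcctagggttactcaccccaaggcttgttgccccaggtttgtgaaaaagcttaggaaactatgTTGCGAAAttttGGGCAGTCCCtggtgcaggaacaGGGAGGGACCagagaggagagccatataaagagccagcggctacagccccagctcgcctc
The NF-kB type letters begin 197, 33 and 10 bases before the start, with matches on both strands overlapping at the first 2 places, and the C/EBP type letters begin 45 bases before it. The C/EBP type letters are found in 10.8% of the 32851 promoters, and among the 5 promoters at hand for the 10 genes *C3* alone held them. *C5ar1* alone of those 5 held no NF-kB type match. *C3ar1* held AP-1 type letters, TGANTCA, beginning 22 bases before its start, which 7.81% of all promoters hold, and none of the 5 held STAT type letters, TTCNNNGAA (8.3% of all), or interferon response type letters, GAAA and GAAA with 2 bases between them (3.44%).

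*C3* was at 19.3, 49.5 and 34.9 CPM in controls 1, 2 and 3, at 473, 384 and 594 CPM under DSS and at 184, 227 and 198 CPM under DSS + EA. No groups overlapped, and the DSS + EA mice lay closer together than the mice of either other group relative to their mean. *C3* was 14.0-fold higher under DSS than in controls (log2 fold change 3.81 ± 0.34, adjusted p = 6.36e-05, edgeR). It was 2.38-fold lower under DSS + EA than under DSS (log2 fold change -1.25 ± 0.31, adjusted p = 0.0118, edgeR) and 5.88-fold higher than in the control group (log2 fold change 2.56 ± 0.33, adjusted p = 0.00423, edgeR). All 3 calls held without any single mouse.

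*C4b*, at chr17:34728380-34743882 in the major histocompatibility region of chromosome 17, encodes C4, the substrate of C1s. It was at 6.35, 6.98 and 10.3 CPM in controls 1, 2 and 3, at 85.6, 82.1 and 89.9 CPM under DSS and at 43.2, 54.2 and 40.0 CPM under DSS + EA. The 3 DSS mice differed by only 1.09-fold from lowest to highest, the smallest spread of the 10 genes in that group. *C4b* was 10.9-fold higher under DSS than in controls (log2 fold change 3.45 ± 0.24, adjusted p = 1.92e-05, edgeR), 1.88-fold lower under DSS + EA than under DSS (log2 fold change -0.91 ± 0.21, adjusted p = 0.00989, edgeR) and 5.83-fold higher under DSS + EA than in controls (log2 fold change 2.54 ± 0.24, adjusted p = 0.00131, edgeR). These calls also held without any single mouse. The near-identical copy *C4a* was not analysed here, and its reads could have been counted on *C4b*.

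The classical and alternative partners of these components, *C2* and *Cfb*, did not follow *C3* and *C4b* in the DSS + EA group. *Cfb*, at chr17:34856374-34862518, was at 34.3, 38.2 and 39.1 CPM in controls 1, 2 and 3, at 83.0, 118 and 165 CPM under DSS and at 131, 127 and 151 CPM under DSS + EA. DSS mouse 1 was the lowest of its group and DSS mouse 3 was above every DSS + EA mouse. *Cfb* was 3.28-fold higher in the DSS group (log2 fold change 1.72 ± 0.25, adjusted p = 0.000659, edgeR) and 3.66-fold higher in the DSS + EA group (log2 fold change 1.87 ± 0.25, adjusted p = 0.0046, edgeR), each against the control group, and both calls held without any single mouse. For DSS + EA against DSS the log2 fold change was 0.16 ± 0.24 (adjusted p = 0.632, edgeR), and it was -0.028 without DSS mouse 1 and 0.44 without DSS mouse 3.

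*C2*, at chr17:34862604-34898265, had 8, 9 and 11 counts in controls 1, 2 and 3, 17, 16 and 27 under DSS and 33, 27 and 40 under DSS + EA, or 2.03, 2.99 and 4.22, 5.47, 3.48 and 8.43 and 10.04, 10.1 and 12.7 CPM in the same order. All DSS + EA mice lay above all DSS mice, and DSS mouse 2 lay within the range of the control mice. *C2* was 3.61-fold higher under DSS + EA than in controls (log2 fold change 1.85 ± 0.40, adjusted p = 0.0339, edgeR), a call that was lost without any one control or DSS + EA mouse (1.60 to 2.13). The log2 fold change was 0.92 ± 0.41 (adjusted p = 0.0998) for DSS against control and 0.94 ± 0.37 (adjusted p = 0.0709) for DSS + EA against DSS, neither called by edgeR. The first was called without DSS mouse 2 (1.22, adjusted p = 0.0373) and the second without DSS mouse 3 (1.31, adjusted p = 0.0286). The ratio of *C2* to *Cfb* counts was 0.0659, 0.0294 and 0.0509 in the DSS mice, 0.0769, 0.0792 and 0.0842 in the DSS + EA mice and 0.0593, 0.0783 and 0.108 in the control mice.

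Another annotated gene overlaps *C2* and *Cfb*. *Gm20547*, at chr17:34856412-34882042, runs across parts of both on the same strand, and it held 60.1% to 71.4% of the counts of the 3 genes in every mouse, while *C2* held 0.818% to 3.59%. Reads of *C2* or *Cfb* may have been counted on it. *Gm20547* was at 83.1, 66.5 and 74.0 CPM in controls 1, 2 and 3, at 177, 303 and 267 CPM under DSS and at 290.1, 223 and 246 CPM under DSS + EA, and followed *Cfb*. Summed as a single locus, an alternative chosen after the data were seen, the 3 genes were 3.28-fold higher in the DSS group (log2 fold change 1.71 ± 0.22, adjusted p = 0.000345, edgeR) and 3.49-fold higher in the DSS + EA group (log2 fold change 1.80 ± 0.22, adjusted p = 0.0034, edgeR) than in the control group. For DSS + EA against DSS the summed locus had a log2 fold change of 0.09 ± 0.21 (adjusted p = 0.77, edgeR).

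**Figure D3:**
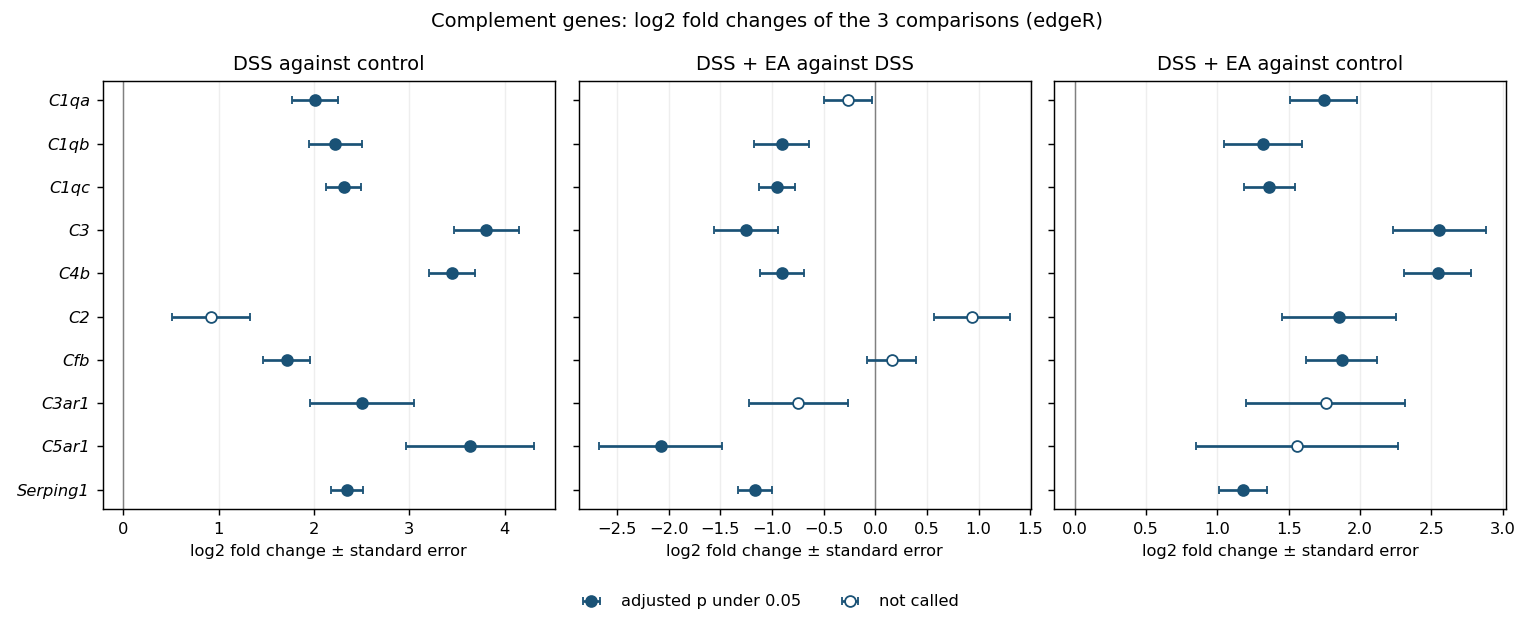
Log2 fold changes of the 10 complement genes in the 3 comparisons, with edgeR standard errors as bars; filled points have an adjusted p-value under 0.05, and each panel has its own axis. In the DSS + EA against DSS panel, 6 filled points lie below 0, while *C2* (0.94) and *Cfb* (0.16) lie above 0 and are not called.

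*C3ar1* and *C5ar1* encode the receptors for the anaphylatoxins C3a and C5a. They are carried mainly by neutrophils, monocytes and macrophages. *C5ar1*, at chr7:16246743-16259540, had 5, 8 and 12 counts in controls 1, 2 and 3, 28, 152 and 194 under DSS and 25, 26 and 22 under DSS + EA. In CPM these were 1.27, 2.66 and 4.6, then 9.01, 33.0 and 60.5, then 7.61, 9.71 and 6.98. The DSS mice differed 6.72-fold among themselves, and DSS mouse 1 lay within the range of the DSS + EA mice. *C5ar1* was 12.4-fold higher under DSS than in controls (log2 fold change 3.64 ± 0.67, adjusted p = 0.0024, edgeR), with a log2 fold change of 2.96 without DSS mouse 3. It was 4.22-fold lower under DSS + EA than under DSS (log2 fold change -2.08 ± 0.60, adjusted p = 0.0228, edgeR). That call was lost without DSS mouse 2 or 3 or any one DSS + EA mouse, and the log2 fold change was -1.39 (adjusted p = 0.0768) without DSS mouse 3. For DSS + EA against control the log2 fold change was 1.56 ± 0.71 (adjusted p = 0.301, edgeR), although all DSS + EA mice lay above all control mice.

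*C3ar1*, at chr6:122847138-122856161, had 12, 7 and 9 counts in controls 1, 2 and 3, 21, 54 and 103 under DSS and 33, 29 and 29 under DSS + EA. In CPM these were 3.05, 2.33 and 3.45, then 6.76, 11.7 and 32.1, then 10.04, 10.8 and 9.2. DSS mouse 3 carried most of the DSS signal, and DSS mouse 1 lay below all DSS + EA mice. *C3ar1* was 5.67-fold higher under DSS than in controls (log2 fold change 2.50 ± 0.54, adjusted p = 0.00543, edgeR), and the log2 fold change was 1.66, still called, without DSS mouse 3. For DSS + EA against DSS it was -0.74 ± 0.48 (adjusted p = 0.246, edgeR); without DSS mouse 1 it was -1.08 (adjusted p = 0.0472), and without DSS mouse 3 it was 0.10. Against the control group, the DSS + EA group had a log2 fold change of 1.76 ± 0.56 (adjusted p = 0.134, edgeR), which was called when only those 2 groups were fitted (adjusted p = 0.00578) or when DSS mouse 1 or 3 was left out of the fit. The ratio of *C5ar1* to *C3ar1* counts was 1.33, 2.81 and 1.88 in the DSS mice and 0.758, 0.897 and 0.759 in the DSS + EA mice, which did not overlap, and 0.417, 1.14 and 1.33 in the control mice.

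Neutrophil markers moved with the receptors only in part. With all mice, both receptors were called higher under DSS, *C5ar1* alone was called lower under DSS + EA than under DSS, and neither was called for DSS + EA against control. All 11 of the 12 neutrophil markers that could be tested were higher under DSS than in controls (21.5% of all genes tested). Of them 9 were lower under DSS + EA than under DSS (18.3% of all genes tested), and 6 were higher under DSS + EA than in controls (3.00% of all genes tested). Their summed CPM was 23.8 to 159.9 in controls, 4631 to 28157 under DSS and 1221 to 1612 under DSS + EA, and 2 of them were at 0 in all control mice. DSS mouse 1 was lowest and DSS mouse 3 highest of the DSS mice for this sum, as for both receptors and for the summed macrophage and fibroblast markers. *S100a8* took most of the sum in DSS mice 2 and 3, and *Ly6g* was highest in DSS mouse 1. The sum of DSS mouse 1, 4631, lay above every DSS + EA mouse, while its *C5ar1* lay within their range and its *C3ar1* below it. The part of neutrophil number in the receptor values was not tested.

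**Figure D4:**
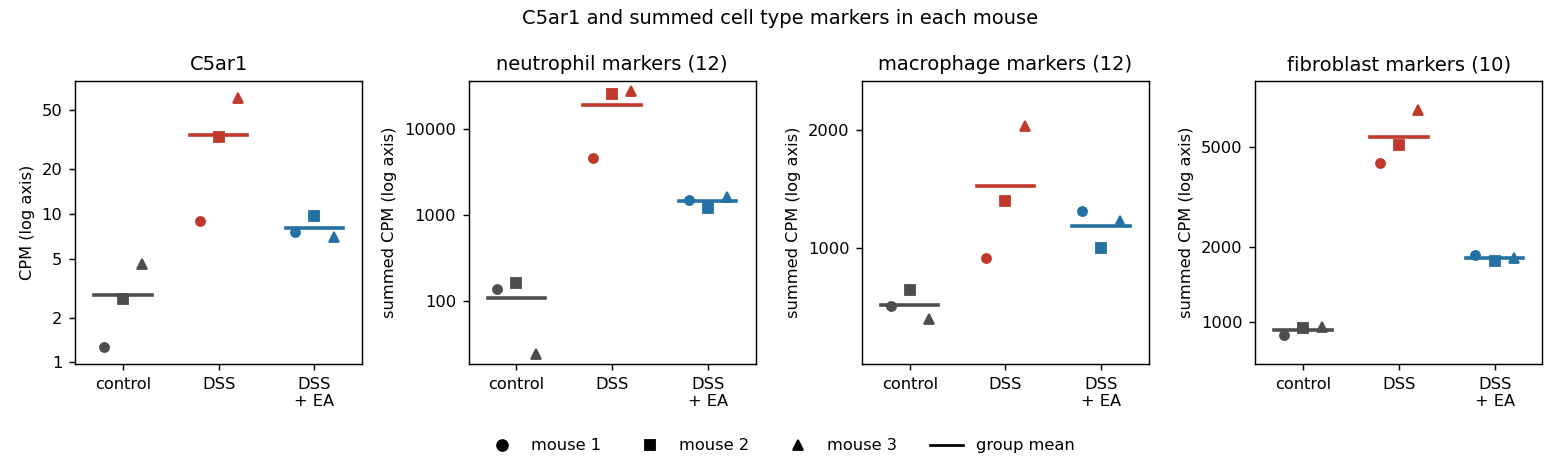
*C5ar1* (CPM) and the summed CPM of neutrophil, macrophage and fibroblast markers in each mouse, on log axes, with 1 point per mouse and a line at the group mean. DSS mouse 1 is the lowest and DSS mouse 3 the highest DSS mouse in all 4 panels.

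*Serping1*, at chr2:84765387-84775444 on chromosome 2, encodes C1 inhibitor and varied little between mice of a group. It was at 72.4, 79.1 and 71.3 CPM in controls 1, 2 and 3, at 359, 338 and 437 CPM under DSS and at 163, 179 and 164 CPM under DSS + EA. The 3 groups lay far apart compared with their spread. *Serping1* was 5.09-fold higher under DSS than in controls (log2 fold change 2.35 ± 0.17, adjusted p = 2.52e-05, edgeR) and 2.24-fold lower under DSS + EA than under DSS (log2 fold change -1.17 ± 0.17, adjusted p = 0.00111, edgeR), and both calls held without any single mouse. It was 2.27-fold higher under DSS + EA than in controls (log2 fold change 1.18 ± 0.17, adjusted p = 0.00604, edgeR), with an adjusted p of 0.0502 without control mouse 1.

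Most fibroblast markers moved between groups in the same direction as *Serping1*, *C3* and *C4b*, as did several macrophage markers. Of 10 fibroblast markers, 9 were higher under DSS than in controls (21.5% of all genes tested), 6 were lower under DSS + EA than under DSS (18.3%), and 4 were higher under DSS + EA than in controls (3.00%). Their summed CPM was 888 to 956 in controls, 4308 to 7037 under DSS and 1761 to 1857 under DSS + EA, and none was at 0 throughout a group. *Dcn* and *Col3a1* took most of the sum, and *Fbln1* was not called (log2 fold change -0.19 with DSS). Within the DSS group the sum was lowest in DSS mouse 1, while *Serping1*, *C3* and *C4b* were lowest in DSS mouse 2. The part of fibroblast number in these values was not tested. Of 12 colon epithelium markers, 7 were lower under DSS than in controls (19.5% of all genes tested) and 4 were higher under DSS + EA than under DSS (17.2% of all genes tested). None differed for DSS + EA against control by edgeR, where 1 had an unadjusted p under 0.05, or by DESeq2. In that comparison only 3.00% of all genes tested were higher and 0.637% lower by edgeR. All 8 smooth muscle markers were tested, and 6 were lower under DSS than in controls (19.5% of all genes tested). For DSS + EA against DSS 2 of them were higher (17.2% of all genes tested). Against control none was called by edgeR, and DESeq2 called 1 lower. Of 8 B and plasma cell markers, 7 were tested and 1 was lower in the DSS group, where 19.5% of all genes tested were lower. The 1 hepatocyte marker that edgeR tested was not called by it in any comparison, and it had an unadjusted p under 0.05 for DSS against control, lower in the DSS group. DESeq2, which tested more of them, called 3 higher and 1 lower for DSS against control and 1 lower for DSS + EA against DSS. Of these markers *Fgb*, a fibrinogen chain, had 0, 0 and 0 counts in controls 1, 2 and 3, 86, 10 and 6 under DSS and 2, 2 and 2 under DSS + EA, and the part of such transcripts in the complement values was not tested.

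As a description of the means, which share the same mice, the DSS + EA group kept 16.8% of the DSS rise in CPM for *C5ar1*, 31.0% for *Serping1*, 37.5% for *C3*, 39.6% for *C1qc*, 40.7% for *C1qb* and 48.6% for *C4b*. It kept 50.8% for *C3ar1* and 77.6% for *C1qa*. *Cfb* stood at 116% and *C2* at 290.0%, both above the DSS mean. DSS mouse 3 alone moved several of these shares, which without it were 112% for *C3ar1*, 28.9% for *C5ar1* and 564% for *C2*. Without DSS mouse 1, *C1qa* stood at 102% and *Cfb* at 94.6%. Levels were not divided by transcript length, as full-length cDNA was read. Mean CPM in the control mice was highest for *Serping1* (74.3), *C1qb* (73.1) and *C1qa* (66.2), whose mice overlapped. *Cfb* (37.2), *C3* (34.6) and *C1qc* (33.5) followed and also overlapped. *C4b* (7.89) came next, and *C2* (3.08), *C3ar1* (2.94) and *C5ar1* (2.84) were lowest and overlapped. In the DSS mice *C3* had the highest mean (483 CPM), above *Serping1* (378), *C1qb* (341) and *C1qa* (267). *Gm20547*, on which reads of *C2* or *Cfb* may have been counted, had a mean of 74.5 CPM in controls, so the places of both in this order are uncertain.

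The genes most like each complement gene across the 9 libraries were found by the root mean square difference of centred log2 CPM over all genes tested, where 0 would be an identical pattern. This is a description of 9 libraries that share their groups. Nearest to *Serping1* were *Col1a2* (0.13) and *Sparc* (0.13), a collagen chain and a matrix protein. *Col1a2* (0.15) was also nearest to *C1qc*, closely followed by *Serping1* (0.15), while *Pld4* (0.18) and *C1qc* (0.21) were nearest to *C1qb*. *C1qa* was nearest to *Mfap2* (0.27). *C4b* was the named gene nearest to *C3* (0.39), and *Msln* (0.31) and the interferon-induced *Ifitm3* (0.37) were nearest to *C4b*. *Cfb* was nearest to *Tgm2* (0.23), *Gm20547* (0.23) and *Aif1* (0.24), *C2* to *Setdb2* (0.28), *C3ar1* to *Gsap* (0.25) and *Batf* (0.26), and *C5ar1* to the Fc receptor gene *Fcgr3* (0.32) and *Dok3* (0.34).

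The rest of the complement system was read from a list of 45 further genes, of which 44 were in the table and 17 had enough counts to be tested. Of these 17, 9 were higher and 3 lower under DSS than in controls (21.5% and 19.5% of all genes tested). DEGs numbered 6, where 6.62% of all genes tested were higher and 3.57% lower DEGs. Their median log2 fold change was 1.55 for the 17 genes, against 0.02 for all genes tested. In the DSS + EA group compared with the DSS group, 1 was higher and 6 were lower (17.2% and 18.3% of all genes tested), with a median of -0.92, against -0.02. Against the control group 2 were higher and 1 (*C4bp*) was lower (3.00% and 0.637% of all genes tested). The *C4bp* call was lost without any one control or DSS + EA mouse. In the alternative pathway, *Cfp*, which encodes properdin, the protein that stabilises its C3-cleaving enzyme, was at 6.86, 9.97 and 9.2 CPM in controls 1, 2 and 3, at 34.4, 81.7 and 154 CPM under DSS and at 16.7, 21.3 and 22.2 CPM under DSS + EA. It was 10.4-fold higher with DSS (log2 fold change 3.38 ± 0.49, adjusted p = 0.000655, edgeR) and 4.48-fold lower under DSS + EA than under DSS (log2 fold change -2.16 ± 0.45, adjusted p = 0.00602, edgeR), with log2 fold changes of 2.75 to 3.74 and -2.52 to -1.53 over the mice left out, both smallest in size without DSS mouse 3. *Cfd*, which encodes factor D, the protease that cleaves factor B, changed by -1.55 on the log2 scale with DSS (adjusted p = 0.0497, edgeR), a call that was lost in 7 of the 9 fits without single mice (-2.22 to -1.23, the lowest without DSS mouse 3). It was at 22.1, 91.8 and 88.9 CPM in the control mice and 9.97, 18.5 and 40.6 CPM in the DSS mice, which overlapped.

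Regulators of complement moved in both directions. *Cd59a*, a membrane inhibitor of the membrane attack complex, was 2.15-fold higher under DSS than in controls and 2.24-fold lower under DSS + EA than under DSS (adjusted p = 0.00426 and 0.00472, edgeR), and *Clu*, which encodes clusterin, was 2.93-fold higher with DSS (adjusted p = 0.00993, edgeR). *Cd55* and *Cr1l*, membrane regulators of the C3-cleaving enzymes, had log2 fold changes of 0.30 and 0.18 with DSS, neither called. *C4bp* and *Cpn1* fell with DSS. *C4bp*, which encodes the C4 binding protein, had 32, 56 and 28 counts in controls 1, 2 and 3, 4, 6 and 1 under DSS and 12, 4 and 8 under DSS + EA, and was 12.1-fold lower with DSS (log2 fold change -3.59 ± 0.53, adjusted p = 0.000737, edgeR). *Cpn1*, which encodes the carboxypeptidase that inactivates C3a and C5a, had 73, 72 and 98 counts in controls 1, 2 and 3, 1, 0 and 2 under DSS and 27, 27 and 31 under DSS + EA. It was called lower under DSS than in controls (adjusted p = 6.15e-05, edgeR) and higher under DSS + EA than under DSS (adjusted p = 0.000627, edgeR). Against the 3 counts of the DSS mice together, summed counts per adjusted library total were 92.6-fold (exact 95% interval 31.3 to 452, counting error only) higher in controls and 33.9-fold (exact 95% interval 11.2 to 168, counting error only) higher under DSS + EA. Without single mice both calls held, with log2 fold changes of -7.29 to -5.67 and 4.18 to 5.80 whose ends were the fits without DSS mouse 2 or 3. *Cpn1* was the single further complement gene called higher under DSS + EA than under DSS.

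Of the further receptors, *Itgam* and *Itgb2*, which together encode complement receptor 3, a receptor of neutrophils and macrophages for fragments of C3, were both called in the first 2 comparisons. *Itgam* had only 7, 4 and 1 counts in controls 1, 2 and 3, the last below 3 counts, so its fold change against controls is imprecise. In CPM it was at 1.78, 1.33 and 0.383 in controls 1, 2 and 3, at 11.6, 70.8 and 124 under DSS and at 1.52, 6.35 and 4.12 under DSS + EA. It was 54.1-fold higher with DSS (log2 fold change 5.76 ± 0.92, adjusted p = 0.00111, edgeR) and 17.4-fold lower under DSS + EA than under DSS (log2 fold change -4.12 ± 0.80, adjusted p = 0.00442, edgeR). Over the mice left out, these log2 fold changes were 5.03 to 6.23 and -4.59 to -3.39. *Itgb2* was 20.7-fold higher and 7.19-fold lower in these comparisons (adjusted p = 0.000961 and 0.00671, edgeR), with 3.38 to 4.81 and -3.28 to -1.84 over the mice left out. For both genes the smallest changes were those without DSS mouse 3. DSS mouse 1 was the lowest DSS mouse for both, as it was for *C5ar1*, *C3ar1* and the summed neutrophil, macrophage and fibroblast markers. *Vsig4*, a macrophage receptor for C3 fragments, had too few counts to be tested, with 0, 0 and 0 in the control mice, 11, 11 and 10 in the DSS mice and 1, 2 and 3 in the DSS + EA mice. It was at least 3.11-fold higher under DSS than in controls, against a floor of 3 counts per library.

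Few counts were found for the terminal pathway. *Hc*, which encodes C5, had 4 counts in all 9 libraries together, and *C6*, *C7*, *C8g* and *C9* had 45, 20, 16 and 4. No count was found for *C8a* or *C8b*, nor for *Mbl1*, *Mbl2* or *Masp2* of the lectin pathway. *Fcna*, which encodes a ficolin of macrophages, was called, 3.47-fold higher with DSS (log2 fold change 1.79 ± 0.31, adjusted p = 0.00156, edgeR) and 2.65-fold lower under DSS + EA than under DSS (log2 fold change -1.41 ± 0.30, adjusted p = 0.00647, edgeR). *C1rl*, a relative of C1r, was 4.17-fold higher with DSS (adjusted p = 0.0313, edgeR), a call that was lost in 5 of the 9 fits without single mice (1.23 to 2.48, the lowest without DSS mouse 3). With all mice *Masp1*, *Cd93* and *C1qbp* were not called in any comparison, and *Cd93* was called for DSS against control and for DSS + EA against DSS without DSS mouse 1.

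**Figure D5:**
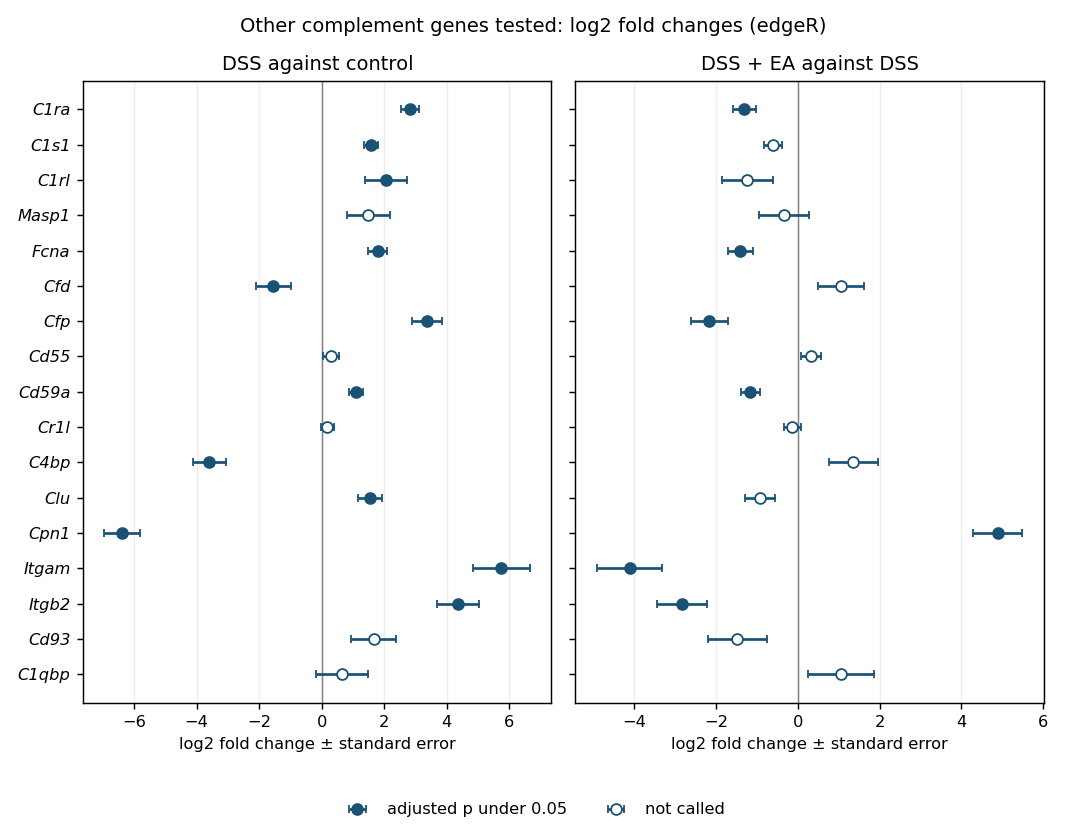
Log2 fold changes of the 17 further complement genes tested, DSS against control (left) and DSS + EA against DSS (right), with edgeR standard errors as bars; filled points have an adjusted p-value under 0.05. On the left 9 filled points lie above 0 and 3 below; on the right *Cpn1* is the only filled point above 0 and 6 lie below.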

How the data were processed

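The authors deposited whole-number read counts per gene for 9 mouse colon libraries, without normalization. The mm10 build is listed in the labels' processing notes, and the aligner, the counting tool and the use of strand are not given in the sources used here, so reads of overlapping or near-identical genes could have been divided between them. Lines without counts (14 of 27733) were skipped. The table carried Ensembl identifiers, of which 22022 are in GENCODE M21, the source of positions. Promoter sequences are those of RefSeq (GRCm38.p6), at hand for 5 of the 10 genes. Samples were grouped by the treatment in the labels.

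All 9 libraries were fitted together with group as the only term by the quasi-likelihood method of edgeR 4.0.16 in R 4.3.3, after TMM normalization, with a prior count of 0.125 and the 12566 genes that filterByExpr kept by group. P-values were adjusted by the Benjamini-Hochberg method over all of them and called under 0.05. A two-sided exact permutation test of 3 mice against 3 cannot go below 0.1. Standard errors are those implied by the F statistic. Nothing in the sources says that mice came from separate cages or days, so p-values measure the spread between these mice only. PCR copies were not told apart, so counting error alone is covered by floors and intervals. Depth was 2627695 to 4235576 counts per library. Summaries and figures were made with pandas 2.3.3 and matplotlib 3.10.9 under Python 3.11.15. The functions were tested on simulated data.

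The alternatives were DESeq2 1.42.0, the tool named in the study's methods, RLE normalization, library totals, no filter, a filter at a mean of 20 counts, a prior count of 2, a fit of the 2 groups compared alone, the replicate number as a block, and each mouse left out. All 10 complement genes are named, with other complement genes where they were called or belong to the same step. The 10 genes, the lists and the markers were chosen with earlier results of these data known. *C4a*, 1 further complement gene of the lists and the study's human samples are not reported here.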

Additional observations from a re-analysis of the deposited data

How the results depend on the processing

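Over the alternatives, 510 log2 fold changes of the 10 genes were recomputed: 478 kept their direction and their side of the threshold, 23 lost a call, 6 gained a call and 3 changed sign. The 3 that changed sign were never called: DSS + EA against DSS was 0.044 for *C1qa* and -0.028 for *Cfb* without DSS mouse 1, and 0.10 for *C3ar1* without DSS mouse 3; the cause was not tested. Over all mice left out in turn, these values were -0.40 to 0.044 for *C1qa*, -0.028 to 0.44 for *Cfb* and -1.08 to 0.10 for *C3ar1*. Only fitting the 2 groups compared, the fall of *C1qb* in the DSS + EA group was not called (adjusted p = 0.0666, edgeR). Over all genes tested, DSS + EA against control then gave 790 higher and 359 lower of 11338, against 377 and 80 of 12566. DESeq2's median over all genes it tested was -0.17 for DSS + EA against DSS, against -0.02 with edgeR, and no call of the 10 genes changed.

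With a mean of at least 20 counts, which tests fewer genes, 1 further complement gene was lower in the DSS group (1883 of all 9508 genes tested). For DSS + EA against control, 1 of the 10 genes was then a DEG. Of the further genes 1 was higher and 0 were lower in that comparison (277 and 58 of all 9508). Without a filter, 2 further complement genes were higher under DSS + EA than under DSS and 2 were lower than in the control group (2467 and 89 of all 22099 genes tested). A prior count of 2 left 1 DEG of the 10 for DSS + EA against control. For the further genes in that comparison, library totals gave 1 higher (318 of all 12566 genes tested) and DESeq2 2 lower (139 of all 14880). The 2-group fit gave 4 of them higher and 2 lower (790 and 359 of all 11338). Beyond fewer samples or genes, the cause was not tested. Leaving out single mice gave 0 to 1 of the 10 genes higher for DSS + EA against DSS, and 5 to 9 higher and 0 to 2 DEGs for DSS + EA against control. Among the further genes it gave 1 to 2 higher for DSS + EA against DSS. For DSS + EA against control it gave 0 to 3 of them higher and 0 to 2 lower. Over these fits, 1410 of 13407 to 3050 of 13341 of all genes tested were higher for DSS + EA against DSS. Against control, 88 of 13287 to 599 of 13341 were higher and 14 of 13407 to 173 of 13341 lower.

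The replicate numbers of the labels mark different animals. Same-numbered mice correlated between -0.16 and 0.11 in their deviations from the group means over 9 pairs, 1 of them over 0.1, so the numbers were not taken to pair the mice. With the replicate block, the rise of *C1qb* in the DSS + EA group against control was not called (1.32, adjusted p = 0.0508, edgeR). No other call of the 10 genes changed. In that comparison 1 further gene was higher and 0 were lower (313 and 51 of all 12566 genes tested), and *C1s1* and *C4bp* lost their calls. Calls on *C2*, *C3ar1* and *C5ar1*, and on further genes such as *Itgam*, rest on few counts in the control mice, where depth limits precision most.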

Other observations

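*C1qbp*, which encodes a mitochondrial protein first found as a binder of the C1q head, had 54, 24 and 43 counts in controls 1, 2 and 3, 28, 147 and 58 under DSS and 335, 28 and 35 under DSS + EA. DSS + EA mouse 1 held 102 CPM, against 10.5 and 11.1 CPM in the other DSS + EA mice. *Cd46*, a membrane regulator of complement that was not tested, had 14, 11 and 8 counts in controls 1, 2 and 3, 5, 8 and 7 under DSS and 6, 6 and 8 under DSS + EA. *C6*, which encodes the component that joins C5b in the membrane attack complex, had 0, 3 and 0 counts in controls 1, 2 and 3, 12, 8 and 3 under DSS and 5, 6 and 8 under DSS + EA, and it too had too few counts to be tested.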
